A study of Mus musculus with 6 samples.

Results

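Arginine is shared between enzymes that hydrolyse it, enzymes that oxidise it to nitric oxide and enzymes that rebuild it, and 10 genes of these routes were followed in IL-4-treated bone marrow-derived macrophages (BMDMs). The genes were chosen by what they encode, but with earlier results of these data known. The 10 include the arginases Arg1 and Arg2, the nitric oxide synthase Nos2, and Odc1, Srm and Sms of polyamine synthesis. The others are Oat, which leads from ornithine towards proline, Ass1 of arginine synthesis, and the cationic amino acid transporters Slc7a1 and Slc7a2. All 10 were found among the 24445 genes of the count table, and all 10 passed the filter on low counts that left 12023 genes for testing. Of the 10, 2 fell in AclyM-KO macrophages, Arg1 and Slc7a2, and 3 rose, Ass1, Slc7a1 and Oat. By the same test, 12.6% of all 12023 genes fell and 12.4% rose. Odc1, Srm, Sms, Arg2 and Nos2 did not pass the test.

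The study asked what loss of ATP citrate lyase (Acly), which makes cytosolic acetyl-CoA from citrate, does to macrophages activated with IL-4. It compared 3 libraries of AclyM-KO BMDMs with 3 libraries of Ctrl BMDMs (labelled WT). Both carry loxP-flanked Acly alleles on a C57Bl/6J background, and AclyM-KO mice also carry Cre under the control of Lyz2, a gene expressed across myeloid cells. The marrow came from female mice whose age is not given in the sources used here. All cells of both groups had grown for 7 days in L929-conditioned medium and then received IL-4 at 100 U/mL over 24 h, and naive macrophages were not analysed here. The replicates are described both as biological and as technical replicates of pooled mice, so the p-values measure the spread between libraries, which may be technical.

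In macrophages, IL-4 acts through STAT6 and turns on Arg1, a classical marker of alternative activation, whereas Nos2 belongs to the response to bacterial products and interferon-γ. Arginase splits arginine into urea and ornithine. Ornithine then either enters polyamine synthesis through ornithine decarboxylase or is turned by ornithine aminotransferase into a precursor of proline and glutamate. Nitric oxide synthase takes the same arginine and releases nitric oxide and citrulline, from which argininosuccinate synthase (Ass1) and argininosuccinate lyase (Asl) can make arginine again.

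Depth was 12151975 to 14739690 counts in the Ctrl libraries and 14745612 to 15587284 in the AclyM-KO libraries. The targeted gene was lower in each library labelled KO than in any labelled WT, with Acly at 334 ± 14.4 CPM (counts per 1000000 counts of the scaled library, mean ± SD, n = 3) in Ctrl and 138 ± 6.63 CPM in AclyM-KO cells (log2 fold change -1.27). The macrophage markers Adgre1, Csf1r, Cd68, Itgam, Mertk, Fcgr1 and Lyz2 were all detected in every library. Summed over these 7 genes they reached 13371 to 14682 CPM in Ctrl and 11062 to 11511 CPM in AclyM-KO libraries. Without Lyz2, the gene whose control elements drive Cre, the other 6 summed to 7247 to 7561 CPM in Ctrl and 6946 to 7310 CPM in AclyM-KO libraries, ranges that overlap. Of the 7, Mertk, Lyz2, Itgam and Csf1r fell and Adgre1 rose, where 12.6% of all genes tested fell and 12.4% rose. Lyz2, whose control elements drive Cre in AclyM-KO mice, was at 62.8% of Ctrl, and the source of its fall was not tested. Of 10 neutrophil markers 5 could be tested and S100a8, S100a9 and Mmp8 rose, with sums of 33.8 to 36.4 CPM in Ctrl and 64.3 to 68.6 CPM in AclyM-KO libraries, while Ly6g had 1 count in 1 Ctrl library and 0 in the other 5. Most of the rise in the sum was Mmp8, which went from 16.9 ± 2.18 to 40.1 ± 1.77 CPM. Ngp and Ltf did not pass (edgeR adjusted p = 0.108 and 0.206). S100a9 had an adjusted p of 0.0728 without Ctrl replicate 3. Of 8 genes listed as dendritic cell markers 2 could be tested and Kit, which is not particular to these cells, rose. The 8 genes summed to 5.47 to 7.44 CPM in Ctrl and 10.2 to 12.0 CPM in AclyM-KO libraries. Most of that rise was Kit, which went from 3.19 ± 0.829 to 7.61 ± 0.618 CPM. The other tested gene, Zbtb46, was at 2.13 ± 1.09 and 2.20 ± 0.428 CPM (edgeR adjusted p = 0.886). Flt3, Xcr1, Clec9a, Ccr7, Siglech and Dpp4 had too few counts. Of 7 eosinophil, basophil and mast cell markers 2 could be tested and neither passed. Their sums were 21.4 to 27.9 CPM in Ctrl and 20.6 to 27.7 CPM in AclyM-KO libraries. None of 6 fibroblast and 6 lymphocyte markers had enough counts to be tested, and Lum was at 0 in every library. The part of these markers in the results on arginine genes was not tested. In bulk RNA, fewer cells of a type and less RNA per cell cannot be told apart.

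A difference was taken as a rise or a fall where edgeR's quasi-likelihood test gave a Benjamini-Hochberg adjusted p under 0.05 over all 12023 genes, which 24.9% of the genes reached, 12.6% lower and 12.4% higher in AclyM-KO cells. Genes that also changed by more than 0.58 on the log2 scale, the limit used in the study, are called, which 5.55% of all genes were, 2.57% lower and 2.98% higher. Among the 10 genes 1 was called lower, Arg1, and none was called higher. At the adjusted p alone 5 of 10 passed. The CPM values of the 2 groups did not overlap for 6 of the 10 genes, against 40.2% of all tested genes. The median log2 fold change was 0.23 over the 10 genes and 0.0014 over all genes tested. For a single gene, an exact two-sided permutation test of 3 against 3 libraries cannot give a p below 0.10, and the 6 genes without overlap were at that value.

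**Figure D1:**
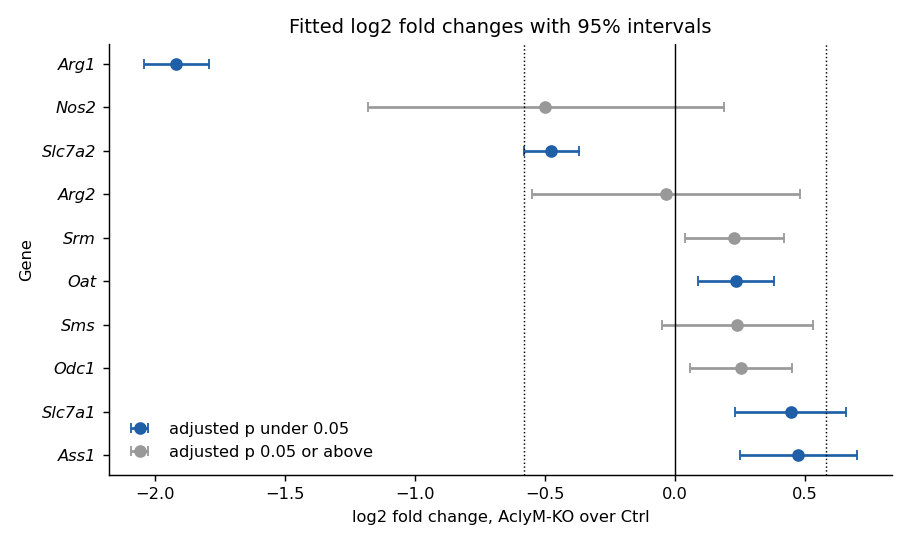
Fitted log2 fold change of each of the 10 genes, AclyM-KO over Ctrl, with its 95% interval from edgeR, ordered from the lowest at the top. Dotted lines mark 0.58 in both directions and blue points have an adjusted p under 0.05. Arg1 stands alone beyond the lower line at -1.92, and the other 9 points lie between the lines.

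Arg1 encodes the cytosolic arginase, lies at chr10:24915221-24927484 on the minus strand (GRCm38, GENCODE M21) and was counted over the 8 exons of a 1477-base transcript. The Ctrl libraries held 15299, 15056 and 13899 Arg1 reads and the AclyM-KO libraries 4368, 4404 and 4349, although the latter were sequenced more deeply. All Ctrl libraries were far above all AclyM-KO libraries, and the AclyM-KO libraries differed little among themselves. Scaled to depth, the Ctrl libraries had 1034, 1232 and 1055 CPM and the AclyM-KO libraries 298, 283 and 298 CPM, so that 26.5% of the Ctrl level remained. The log2 fold change was -1.92 (SE 0.06, 95% interval -2.04 to -1.79, edgeR adjusted p = 2.01e-11). Leaving out any one library gave -1.97 to -1.84. In a test that asks whether a change exceeds the 0.58 limit (glmTreat), Arg1 was the one gene of the 10 that passed. Arg1 had accounted for 54.0% to 57.8% of the CPM of the 10 genes together in Ctrl libraries and accounted for 26.04% to 27.9% in AclyM-KO libraries. Without Arg1 the other 9 genes summed to 810 to 901 CPM in Ctrl and 769 to 820 CPM in AclyM-KO libraries, ranges that overlap.

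**Figure D2:**
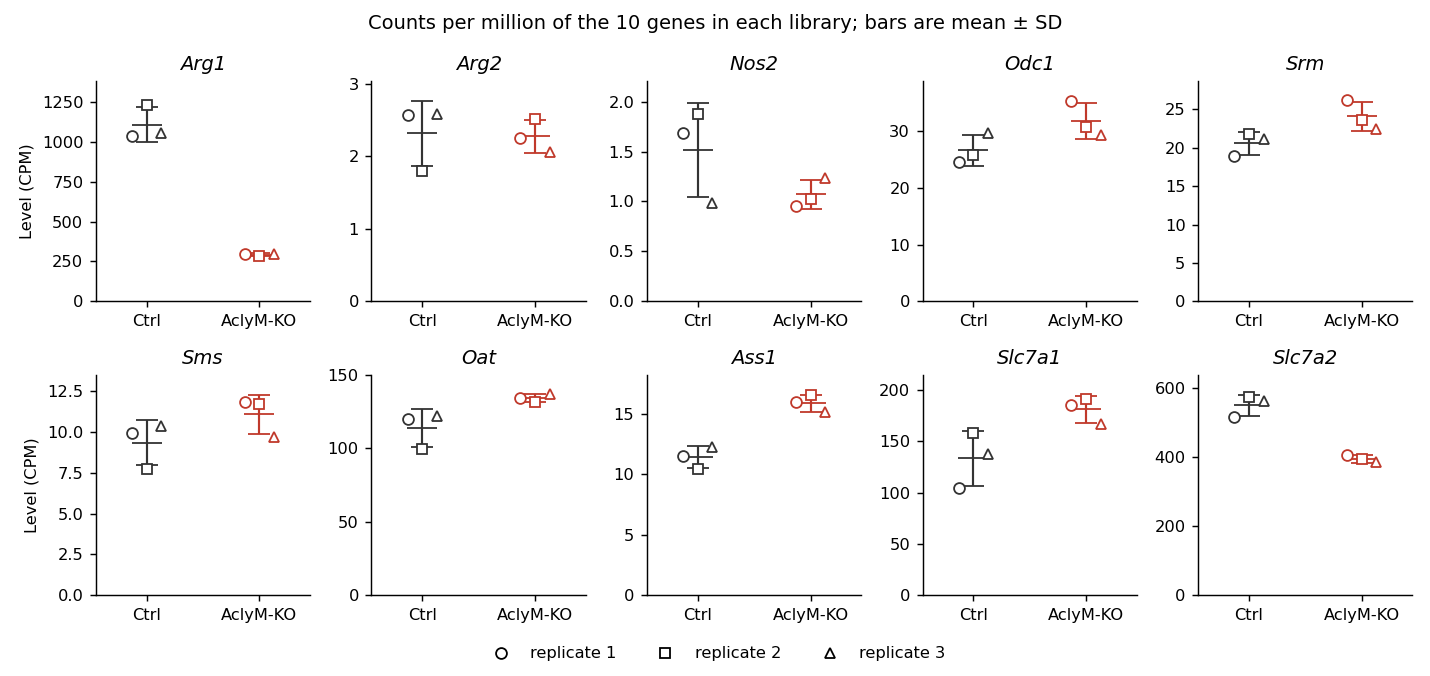
CPM of the 10 genes in each library, with 1 panel per gene and each axis starting at 0. Symbols mark the replicate number and bars the mean ± SD of 3 libraries. The groups are apart for Arg1, Slc7a2, Slc7a1, Ass1, Oat and Srm and overlap for Odc1, Sms, Arg2 and Nos2.

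Arg2 encodes the mitochondrial arginase, the second enzyme able to split arginine, and lies at chr12:79130777-79156301 on the plus strand. Its 38, 22 and 34 reads in Ctrl and 33, 39 and 30 reads in AclyM-KO libraries correspond to 2.32 ± 0.447 and 2.27 ± 0.227 CPM. The groups overlapped fully. The log2 fold change was -0.04 (SE 0.24, adjusted p = 0.933, edgeR), and its interval of -0.55 to 0.48 does not exclude a moderate change in either direction at this depth. The sign turned without Ctrl replicate 1 (0.05), Ctrl replicate 3 (0.04) or AclyM-KO replicate 3 (0.03). Exons on the other strand cover 28.1% of its exonic bases, which adds uncertainty because the strand setting of the counting is not given in the sources used here. In the same library, 1.46 to 2.48 Arg2 reads were counted for every 1000 Arg1 reads in Ctrl and 6.90 to 8.86 in AclyM-KO cells, while the CPM of Arg2 itself overlapped between the groups.

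Nos2 encodes the inducible nitric oxide synthase and lies at chr11:78920787-78960254 on the plus strand. It was counted in few reads, with 25, 23 and 13 reads in Ctrl and 14, 16 and 18 reads in AclyM-KO libraries over a 4192-base transcript. Ctrl replicate 3 lay within the AclyM-KO range when scaled to depth, at 0.987 CPM against 0.955 to 1.23 CPM, and the other Ctrl libraries were at 1.69 and 1.88 CPM. The log2 fold change was -0.50 (SE 0.32, 95% interval -1.18 to 0.19, edgeR adjusted p = 0.285), an interval that includes 0 and reaches beyond the 0.58 limit.

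Both SLC7A transporters carry arginine, lysine and ornithine across the plasma membrane, and they moved in opposite directions. Slc7a2, which encodes CAT2 and lies at chr8:40862396-40922308 on the plus strand, had 516, 574 and 563 CPM in Ctrl and 408, 396 and 385 CPM in AclyM-KO libraries. Every AclyM-KO library was below every Ctrl library. Slc7a2 fell by 0.48 on the log2 scale (SE 0.05, 95% interval -0.58 to -0.37, edgeR adjusted p = 5.30e-06), which left 71.9% of the Ctrl level, and it fell whichever library was left out (-0.52 to -0.45). Slc7a1, which encodes the widely expressed CAT1 and lies at chr5:148327410-148399904 on the minus strand, had 105, 158 and 138 CPM in Ctrl and 186, 191 and 166 CPM in AclyM-KO libraries. The Ctrl libraries were spread more widely but all stayed below the AclyM-KO libraries. Slc7a1 rose by 0.45 (SE 0.10, 95% interval 0.23 to 0.66, edgeR adjusted p = 0.00519), with 0.292 to 0.577 when single libraries were left out. The rise was 0.29 without Ctrl replicate 1, the lowest library. With DESeq2 the same log2 fold change of 0.44 had an adjusted p of 0.0642.

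Within each library, Slc7a1 reads per Slc7a2 read went from 0.203, 0.274 and 0.245 in Ctrl to 0.455, 0.484 and 0.432 in AclyM-KO cells. This ratio does not depend on how libraries are scaled, and every AclyM-KO library was above every Ctrl library. The summed CPM of the 2 transporters was 621, 732 and 701 in Ctrl and 593, 587 and 552 in AclyM-KO libraries.

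**Figure D3:**
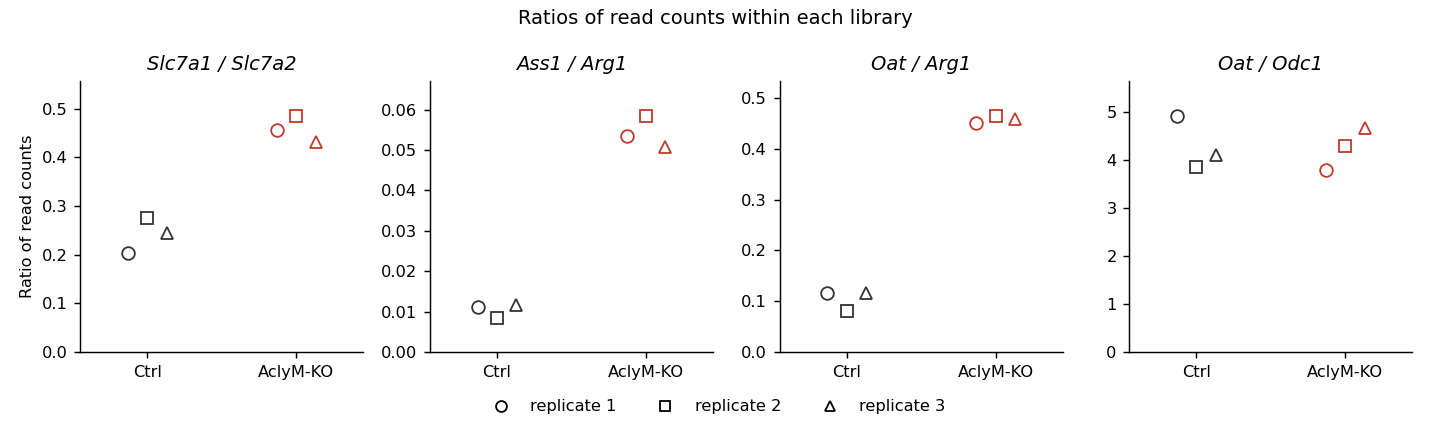
Ratios of read counts between pairs of genes within each library, not corrected for transcript length, with each axis starting at 0. AclyM-KO libraries lie above Ctrl libraries for Slc7a1 over Slc7a2 and for Ass1 and Oat over Arg1, and the groups overlap for Oat over Odc1. The ratios over Arg1 include the fall of Arg1 itself, to 26.5% of Ctrl, with Ass1 at 139% and Oat at 118%.

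The 2 known forms of CAT2 differ in transport affinity because 1 of 2 alternative exons is used, and these exons are shown because the count table has a row for each form. Both annotated transcripts have 12 exons, and the seventh is chr8:40908398-40908534 (137 bases) in NM_007514 and chr8:40908056-40908195 (140 bases) in NM_001044740. Both are on the plus strand and entirely coding. In a global alignment 84 bases were identical and 53 differed, with 3 gap positions. Read 5′ to 3′ on the coding strand of GRCm38, with capitals for bases that differ from the other exon or stand opposite a gap, they are:
NM_007514: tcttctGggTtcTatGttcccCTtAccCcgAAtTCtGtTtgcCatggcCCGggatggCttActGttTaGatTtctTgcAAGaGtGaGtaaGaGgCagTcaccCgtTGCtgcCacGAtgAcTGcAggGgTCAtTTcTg
NM_001044740: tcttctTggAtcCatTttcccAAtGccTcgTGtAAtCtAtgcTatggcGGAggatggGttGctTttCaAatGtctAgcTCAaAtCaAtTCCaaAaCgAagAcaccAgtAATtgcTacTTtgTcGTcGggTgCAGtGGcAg
The rows of both forms hold identical counts in all 6 libraries, so these data give the fall of Slc7a2 as a whole and cannot tell which form carried it.

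Ass1 makes argininosuccinate from citrulline and aspartate, the first step back to arginine. It lies at chr2:31470207-31520672 on the plus strand. Its level was 11.5, 10.47 and 12.3 CPM in Ctrl and 16.0, 16.5 and 15.1 CPM in AclyM-KO libraries. The lowest AclyM-KO library was above the highest Ctrl library. Ass1 rose by 0.47 on the log2 scale (SE 0.10, 95% interval 0.25 to 0.70, edgeR adjusted p = 0.00353), to 139% of Ctrl, and its adjusted p stayed under 0.05 whichever library was left out (0.42 to 0.52). For every 1000 Arg1 reads, 8.50 to 11.7 Ass1 reads were counted in Ctrl and 50.8 to 58.4 in AclyM-KO libraries, a ratio in which both genes moved. Asl, the next enzyme, was at 43.6 ± 2.08 CPM in Ctrl and 39.3 ± 1.51 CPM in AclyM-KO cells (log2 fold change -0.15, adjusted p = 0.106, edgeR), the opposite direction to Ass1 and without passing the test.

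Oat, the mitochondrial ornithine aminotransferase, lies at chr7:132557478-132576398 on the minus strand. It had 120, 99.2 and 122 CPM in Ctrl and 134, 132 and 137 CPM in AclyM-KO libraries. The groups did not overlap, and Ctrl replicate 2 was the lowest. Oat rose by 0.24 on the log2 scale (SE 0.07, 95% interval 0.09 to 0.38, edgeR adjusted p = 0.0172). The rise was 0.15 without Ctrl replicate 2. Without AclyM-KO replicate 1, 2 and 3 the log2 fold change stayed at 0.24, 0.25 and 0.22, while the adjusted p was 0.0523, 0.0508 and 0.0683.

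The enzymes that take ornithine to spermine lay on the higher side in AclyM-KO cells without passing the test. Odc1, ornithine decarboxylase, makes putrescine and is the rate-limiting enzyme of the route (chr12:17544794-17551505, plus strand). Its level was 24.5, 25.8 and 29.8 CPM in Ctrl and 35.4, 30.7 and 29.4 CPM in AclyM-KO libraries, with AclyM-KO replicate 3 just below Ctrl replicate 3. The log2 fold change was 0.26 (SE 0.09, 95% interval 0.06 to 0.45, edgeR adjusted p = 0.0519). The adjusted p was 0.0233 without Ctrl replicate 3 (0.34), 0.0461 without AclyM-KO replicate 3 (0.31) and 0.0187 without the filter on low counts. It was 0.177 without Ctrl replicate 1 (0.19), 0.246 without AclyM-KO replicate 1 (0.17) and 0.109 with DESeq2.

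Srm, spermidine synthase (chr4:148591503-148594993, plus strand), had 18.9, 21.8 and 21.1 CPM in Ctrl and 26.2, 23.5 and 22.5 CPM in AclyM-KO libraries. The groups were apart by a narrow gap. The log2 fold change was 0.23 (SE 0.09, 95% interval 0.04 to 0.42, edgeR adjusted p = 0.0740). Sms, spermine synthase (chrX:157443855-157492287, minus strand), had 9.93, 7.77 and 10.4 CPM in Ctrl and 11.9, 11.7 and 9.73 CPM in AclyM-KO libraries. These ranges overlap, and the log2 fold change was 0.24 (SE 0.14, 95% interval -0.05 to 0.53, edgeR adjusted p = 0.217). Without Ctrl replicate 2, the lowest library, Sms was at 0.13. A processed pseudogene, Sms-ps, could share reads with it. With all libraries, Odc1, Srm, Sms and Oat had log2 fold changes of 0.23 to 0.26, and of these Oat alone passed the test.

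Compared per transcript length, in CPM per kilobase of the counted transcript (RPKM), Arg1 was the most abundant of the 10 genes in both groups, with 749 ± 73.5 in Ctrl and 198 ± 5.73 in AclyM-KO cells. It made up 79.1% to 82.4% of the summed RPKM in Ctrl and 51.0% to 53.0% in AclyM-KO libraries. Slc7a2 followed in Ctrl with 69.7 ± 3.92 when the 7910-base transcript is used and 150 ± 8.43 with the 3677-base transcript. Oat was next with 52.9 ± 5.89. In AclyM-KO cells Oat, at 62.4 ± 1.27, lay above Slc7a2 at 50.1 ± 1.43, without overlap of the libraries, but not with the shorter Slc7a2 transcript (108 ± 3.08). Below them came Slc7a1 (18.6 ± 3.72 in Ctrl and 25.2 ± 1.83 in AclyM-KO cells), Srm (15.4 ± 1.11 and 17.99 ± 1.43) and Odc1 (12.1 ± 1.24 and 14.4 ± 1.43). The libraries of Slc7a1 and Srm overlapped in Ctrl and were apart in AclyM-KO cells, and those of Srm and Odc1 did not overlap in either group. Ass1 was at 6.73 ± 0.539 and 9.36 ± 0.412, Sms at 2.52 ± 0.377 and 2.99 ± 0.321, and Arg2 at 1.62 ± 0.313 and 1.59 ± 0.159. Nos2 was the lowest at 0.362 ± 0.112 in Ctrl and 0.256 ± 0.0344 in AclyM-KO cells.

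**Figure D4:**
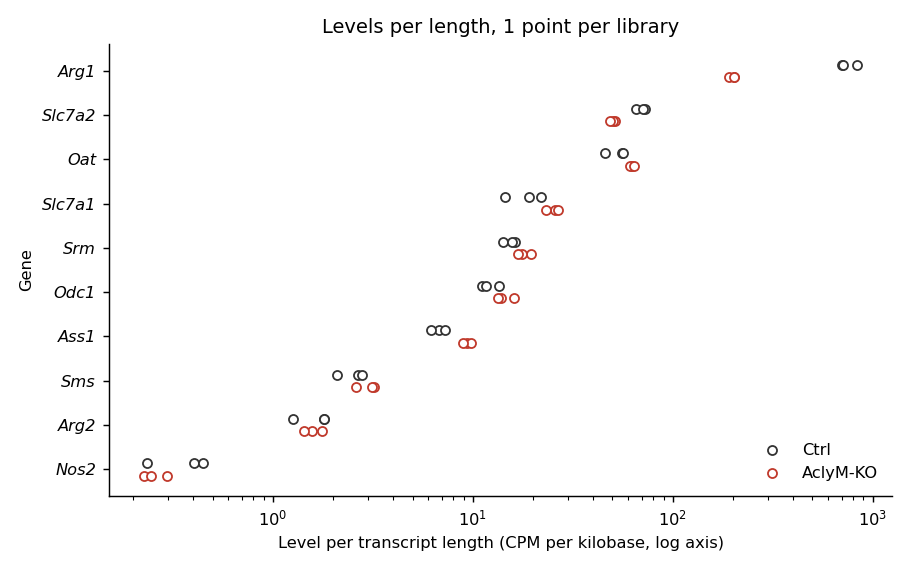
Level of each of the 10 genes per kilobase of the counted transcript in each library, on a log axis, ordered by the Ctrl mean. Arg1 lies at 749 in Ctrl and 198 in AclyM-KO cells on average, and Nos2 below 0.5 in both. Slc7a2 is drawn with its 7910-base transcript.

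Sequence upstream of the start is shown for the 3 genes that rose. RefSeq windows on GRCm38.p6 were found for Ass1, Slc7a1, Oat, Odc1 and Sms, in 7 windows in all, and not for Arg1, Arg2, Nos2, Srm and Slc7a2. Each window is the 250 bases before the RefSeq start. For Ass1 that start, 31470270, lies 63 bases after the start of the GENCODE transcript used for the position above, so its window is shown only up to the GENCODE start (187 bases). The windows of Slc7a1 and Oat that are shown end at the GENCODE start. The sequences are 5′ to 3′ on the gene's strand, from chr2:31470020-31470206 for Ass1, chr5:148399905-148400154 for Slc7a1 and chr7:132576399-132576648 for Oat, and hold no capitals because no searched motif falls in them:
Ass1: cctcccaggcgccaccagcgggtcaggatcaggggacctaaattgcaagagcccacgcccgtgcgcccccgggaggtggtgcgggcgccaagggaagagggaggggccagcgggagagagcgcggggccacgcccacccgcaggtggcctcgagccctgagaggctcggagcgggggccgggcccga
Slc7a1: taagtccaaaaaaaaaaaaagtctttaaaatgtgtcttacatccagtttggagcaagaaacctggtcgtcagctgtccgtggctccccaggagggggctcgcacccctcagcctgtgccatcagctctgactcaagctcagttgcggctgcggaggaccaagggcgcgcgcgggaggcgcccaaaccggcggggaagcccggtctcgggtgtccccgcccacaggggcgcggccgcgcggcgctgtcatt
Oat: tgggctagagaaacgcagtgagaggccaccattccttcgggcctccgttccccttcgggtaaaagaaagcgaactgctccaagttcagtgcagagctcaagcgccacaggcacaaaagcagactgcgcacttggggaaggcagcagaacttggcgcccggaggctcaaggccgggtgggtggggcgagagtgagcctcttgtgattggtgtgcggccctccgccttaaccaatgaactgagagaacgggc
All motifs were searched on both strands in all 7 windows, of which those of Ass1 and Odc1 reach past the GENCODE start and the second ones of Slc7a1 and Sms lie wholly after it. The E-box CACGTG was in the window of Ass1 at chr2:31470234-31470239, which is before the RefSeq start but 28 to 33 bases into the GENCODE transcript. It was also in 1 window of Sms, 196 to 191 bases before the start, and in 6.02% of 32851 windows of the same length. The hypoxia response core ACGTG was found at the same 2 places, inside the E-box, and in 16.6% of windows. The STAT6 motif, TTC and GAA with 4 bases between them (5.85% of windows) and the amino acid response motif TGATGNAA (3.45%) were in none of the 7. A match of letters is a description of the window and not a binding site.

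Around the 10 genes, the other enzymes of each route were examined as lists chosen by function, also with earlier results of these data known. Their counts stand beside the 12.6% of all tested genes that fell and the 12.4% that rose. Among 8 further enzymes of the urea cycle and arginine use, 4 were tested, Gatm fell and Gamt rose, with a median log2 fold change of -0.16. Gatm, which takes arginine into creatine synthesis, went from 147 ± 3.72 to 80.3 ± 3.24 CPM (log2 fold change -0.87, SE 0.05, edgeR adjusted p = 1.88e-08), and was called lower. Gamt, which completes creatine, went from 8.04 ± 1.36 to 10.7 ± 0.251 CPM (0.42, adjusted p = 0.0329). Its adjusted p was 0.0685 to 0.128 when any library other than Ctrl replicate 2 was left out. Cps1, Otc, Nags and Agmat had too few counts.

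Of 10 genes listed for the proline and glutamate branch, 8 were tested, 3 fell and 1 rose, with a median of -0.04. Among all tested genes 12.6% fell and 12.4% rose. The falls include P4ha1 and P4ha2, which act on proline within collagen and not in the branch itself. A further gene, taken off this list after its values were seen, is not reported and is in none of these counts. P4ha1 and P4ha2, catalytic subunits of the prolyl hydroxylase of collagen, fell: P4ha1 from 150 ± 6.79 to 113 ± 8.55 CPM (-0.40) and P4ha2 from 9.28 ± 0.898 to 6.05 ± 0.164 CPM (-0.61, edgeR adjusted p = 0.00399), which was called but was at -0.54 without Ctrl replicate 2. Aldh18a1, which makes the proline precursor from glutamate, went from 48.8 ± 7.78 to 40.1 ± 3.49 CPM (-0.28, adjusted p = 0.0451), with overlapping libraries. Its adjusted p was 0.152 without Ctrl replicate 2, 0.0581 without Ctrl replicate 3, 0.145 without AclyM-KO replicate 2 and 0.167 without AclyM-KO replicate 3. Aldh4a1, which degrades proline to glutamate, rose (0.25, from 40.8 ± 1.60 to 48.4 ± 1.95 CPM), with an adjusted p of 0.0558 without AclyM-KO replicate 2. Pycr1 was too low to be tested.

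Of 17 genes of polyamine synthesis, breakdown and control, 15 were tested, 4 rose and none fell. Over all genes tested, 12.4% rose and 12.6% fell. The median of the list was 0.12 and 11 of 15 values were above 0, against 50.3% of all genes tested. Amd1 and Amd2, whose rows hold the same reads, are 2 of these 15. Azin1, which protects ornithine decarboxylase by binding its antizyme, rose from 260 ± 20.0 to 384 ± 26.1 CPM (0.56, SE 0.06, edgeR adjusted p = 9.14e-06). Oaz1, the antizyme that marks the enzyme for degradation, rose too, from 15.7 ± 2.19 to 23.9 ± 2.17 CPM (0.60, adjusted p = 0.000713). Oaz1 was called, but it fell under the fold limit without Ctrl replicate 2 (0.50), AclyM-KO replicate 2 (0.57) or AclyM-KO replicate 3 (0.56), and a processed pseudogene could share its reads. Azin1 passed the limit without Ctrl replicate 3 (0.62) or AclyM-KO replicate 3 (0.61). Mat2a, which makes S-adenosylmethionine, rose from 111 ± 3.16 to 137 ± 0.943 CPM (0.30). Dhps, which uses spermidine for hypusine, rose from 22.7 ± 0.660 to 26.5 ± 0.671 CPM (0.23, adjusted p = 0.0374), which was 0.0587 to 0.121 with any 1 of the 6 libraries left out. Amd1, which supplies the aminopropyl group, was at 9.53 ± 0.7002 and 11.3 ± 1.49 CPM (0.25, adjusted p = 0.178) with counts identical to those of Amd2. Of the catabolic enzymes, Sat1 was at 526 ± 61.6 and 517 ± 23.4 CPM (-0.03, adjusted p = 0.826) and Smox at 18.5 ± 2.59 and 14.6 ± 2.37 CPM (-0.33, adjusted p = 0.0653). Smox was under 0.05 without Ctrl replicate 1 (0.0487), Ctrl replicate 2 (0.0337) or AclyM-KO replicate 2 (0.0290), and was at -0.22 with 0.269 without Ctrl replicate 3. Without AclyM-KO replicate 2 Amd1 was at 0.15. The sign of Sat1 turned without Ctrl replicate 1 (0.06) or AclyM-KO replicate 1 (0.01).

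Of 14 genes of nitric oxide synthesis and signalling, 9 were tested, 3 rose and 1 fell, with a median of 0.001. Among all tested genes 12.4% rose and 12.6% fell. The 3 that rose are the enzymes of tetrahydrobiopterin synthesis, the cofactor of nitric oxide synthases: Gch1 from 15.8 ± 2.19 to 20.5 ± 1.02 CPM (0.38), Pts from 20.1 ± 1.33 to 31.2 ± 2.12 CPM (0.63) and Spr from 10.9 ± 0.262 to 13.6 ± 0.964 CPM (0.32). Pts had an edgeR adjusted p of 5.47e-05 and was called, and was at 0.578 without Ctrl replicate 2 and 0.575 without AclyM-KO replicate 3, under the limit. Gch1 (adjusted p = 0.0139) was at 0.0644 without Ctrl replicate 1 and 0.0611 without AclyM-KO replicate 3. Spr (0.0404) stayed under 0.05 in 1 of the 6 fits with a library left out, that without AclyM-KO replicate 3, and was at 0.0724 to 0.154 in the other 5. Nostrin, a trafficking partner of endothelial nitric oxide synthase, fell from 20.3 ± 0.557 to 15.7 ± 0.974 CPM (-0.37, adjusted p = 0.00705).

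**Figure D5:**
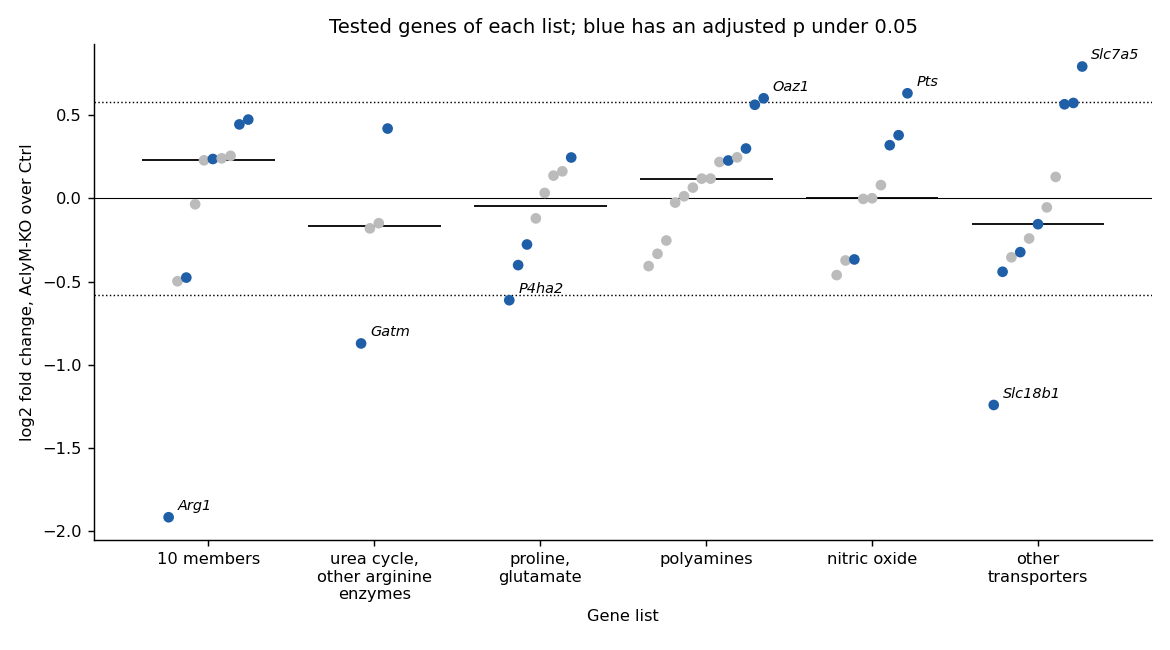
Log2 fold change, AclyM-KO over Ctrl, of the tested genes among the 10 and in 5 lists of related genes (markers and transcription factors are not drawn), with 1 point per gene, a black line at each list's median, dotted lines at 0.58 in both directions and the called genes named. Amd2, whose counts are those of Amd1, is left out. Of the genes drawn, Arg1 lies lowest at -1.92 and Slc7a5 highest at 0.79.

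Of 14 other amino acid and polyamine transporters, 11 were tested, 3 rose and 4 fell, with a median of -0.16. Over all genes tested these shares were 12.4% and 12.6%. The 3 that rose are parts of heteromeric exchangers: the heavy chain Slc3a2 from 320 ± 9.83 to 477 ± 11.7 CPM (0.57, SE 0.05, edgeR adjusted p = 3.44e-07) and the light chains Slc7a5 from 34.8 ± 7.25 to 59.9 ± 7.02 CPM (0.79) and Slc7a6 from 8.53 ± 0.832 to 12.6 ± 1.498 CPM (0.57). Slc7a5 was called, Slc3a2 passed the limit without Ctrl replicate 2 or AclyM-KO replicate 3 (both 0.59), and Slc7a6 without Ctrl replicate 1 (0.59), Ctrl replicate 2 (0.61) or AclyM-KO replicate 1 (0.66). Of the other light chains, Slc7a8 fell from 130 ± 18.9 to 104 ± 6.11 CPM (-0.32, and -0.21 without Ctrl replicate 2), and Slc7a7, which exports arginine, was at 15.1 ± 1.09 and 11.8 ± 2.24 CPM (-0.35, adjusted p = 0.0565). Slc7a7 was at an adjusted p of 0.0314 without Ctrl replicate 2 and 0.0129 without AclyM-KO replicate 3, and at 0.244 without AclyM-KO replicate 2 (-0.24). The lysosomal arginine sensor Slc38a9 fell from 86.2 ± 2.75 to 63.4 ± 4.26 CPM (-0.44). The vesicular polyamine transporter Slc18b1 was called lower at 2.21 ± 0.385 and 0.937 ± 0.103 CPM (-1.24, adjusted p = 0.00489). The polyamine transporter Atp13a3 fell from 180 ± 4.32 to 162 ± 3.13 CPM (-0.16, adjusted p = 0.0265), which was at 0.0534 to 0.112 without Ctrl replicate 3 or any 1 AclyM-KO library.

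Among 16 transcription factors known for acting on Arg1 or Nos2, all tested, 3 rose and 5 fell, with a median of 0.01. For all genes tested the shares were 12.4% and 12.6%. Stat6, the factor downstream of the IL-4 receptor, was at 261 ± 3.53 and 240 ± 4.84 CPM (-0.12, edgeR adjusted p = 0.0689, and 0.0451 without Ctrl replicate 2). Cebpb, which acts at an Arg1 enhancer, was at 32.3 ± 5.50 and 39.3 ± 3.18 CPM (0.28, adjusted p = 0.0550, and 0.0325 and 0.0135 without Ctrl replicate 1 and 2). Without Ctrl replicate 3 Cebpb was at 0.14 (adjusted p = 0.242, edgeR). Klf4 (0.48, from 97.3 to 136 ± 7.06 CPM), Atf4 (0.54, from 286 ± 28.3 to 416 ± 12.2 CPM, and 0.59 without Ctrl replicate 2) and Epas1 (0.72, from 29.1 ± 0.348 to 48.0 ± 3.58 CPM) rose, and Epas1 was called. Irf8 (-0.43), Rxra (-0.29), Spi1 (-0.22) and Nfkb1 (-0.19) fell. Hif1a was at -0.14 with an adjusted p of 0.0498, which was 0.0813 to 0.146 in the 5 fits without Ctrl replicate 1 or 3 or any 1 AclyM-KO library. These are RNA levels, and none of them measures the activity of a factor.

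The genes whose pattern over the 6 libraries was most like that of Arg1 were found by the root mean square difference of log2 CPM after centring each gene on its own mean. They were Ankrd37 (0.229), 3110070M22Rik (0.262), Ak4 (0.267), Slc16a3 (0.273) and Hilpda (0.282). Their log2 fold changes were -2.04, -1.66, -1.50, -1.39 and -1.56, in the same order. All have fewer counts than Arg1, and Slc16a3, which encodes the lactate transporter MCT4, was the most abundant of the 5 at 100.3 ± 11.6 CPM in Ctrl and 38.3 ± 0.623 CPM in AclyM-KO cells. This likeness is chosen from the values and carries no test.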

How the data were processed

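RNA of IL-4-treated BMDMs was measured in 3 Ctrl and 3 AclyM-KO libraries. The authors aligned reads to mm10 with STAR 2.5.2b, after CASAVA 1.8.2 per the labels, and deposited raw read counts for 35745 RefSeq transcripts. The counting program is not given in the sources used here. Every deposited column was used. Isoforms share reads in this table, so each of 24445 genes was represented by its row of highest total, a choice made after seeing that rows were transcripts rather than the genes the design had assumed. The 117 rows without a gene held 0.370% to 1.38% of counts and were left out. Genes passing filterByExpr entered edgeR's quasi-likelihood test (version 4.0.16, R 4.3.3) with TMM factors and a genotype term, and p-values were adjusted by Benjamini-Hochberg. The biological coefficient of variation was 0.0588 (common estimate). Fits were tested on simulated data. CPM uses TMM-scaled library sizes.

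Alternatives were DESeq2 1.42.0, which the study used, limma-voom (limma 3.58.1), other scalings and filters, the sum of all rows of a gene, other fold limits, a replicate block and the removal of each library. The members, the lists and the tests were chosen with earlier results of these data known. Of the listed genes, 1 was taken out of the proline and glutamate list after its values were seen and is not reported. Named genes are the 10 members, Acly, genes of the other lists with an adjusted p under 0.05, 15 genes named regardless of result, and the 5 genes most like Arg1. Exons and gene positions are from GENCODE M21 on GRCm38, and upstream windows are from RefSeq.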

Additional observations from a re-analysis of the deposited data

How the results depend on the processing

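The call of Arg1 as lower, and the absence of a call among the other 9 genes, held under all alternatives that kept the fold limit, except that Nos2 could not be tested with a filter of at least 1 CPM. Without that limit 2 of the 10 genes were lower and 3 higher, and over all genes 1511 were lower and 1485 higher, against 309 and 358 with it. Which of the 10 genes passed at the adjusted p alone varied with the setting. With DESeq2 Slc7a1 did not pass, which left 2 lower and 2 higher. Without the filter on low counts or without Ctrl replicate 3, Odc1 also passed, which gave 4 higher. Oat did not pass without AclyM-KO replicate 1 or 2, and Odc1 took its place without AclyM-KO replicate 3. Testing for a change beyond the limit (glmTreat) left 41 lower and 77 higher genes. With DESeq2 the counts over all genes were 249 and 305. Leaving out single libraries gave 271 to 317 lower and 315 to 374 higher genes. The sign of Arg2 turned in 3 of these fits, with 0.046, 0.038 and 0.031 in a range of -0.182 to 0.046, and no other of the 10 genes changed sign. The log2 fold changes of Arg1 ranged from -1.97 to -1.84 over all alternatives and those of Ass1 from 0.42 to 0.52. Scaling by total library size moved the median log2 fold change of all genes to -0.0177.

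Same-numbered libraries did not deviate together (correlations of -0.065, 0.050 and -0.031), and differently numbered ones ranged from -0.076 to 0.111. With 3 libraries per group, these values cannot show whether the numbers pair the libraries. With a replicate block, 302 genes were called lower and 350 higher, and 1 and 0 of the 10 genes. Depth limits Nos2 and Arg2, whose libraries held 13 to 39 reads each, and the 95% intervals of both allow changes of either sign.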

Other observations

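Arginine residues in proteins are methylated by the protein arginine methyltransferases, which use the same S-adenosylmethionine as polyamine synthesis. Of 9 genes of this family 8 were tested, and 2 rose, with a median log2 fold change of 0.004. The share of all tested genes that rose was 12.4%. Prmt3 went from 20.2 ± 0.115 to 26.6 ± 1.33 CPM (0.40, SE 0.08, edgeR adjusted p = 0.00163) and Prmt7 from 20.1 ± 0.533 to 25.5 ± 1.30 CPM (0.35, SE 0.08, adjusted p = 0.00486). Neither passed the 0.58 limit. The summed CPM of the family was 198 to 206 in Ctrl and 205 to 218 in AclyM-KO libraries.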
